A study of Mus musculus with 11 samples.

Results

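The Bcl2 family holds the genes that set whether a cell keeps or loses the integrity of its mitochondria. Pro-survival members (Bcl2, Bcl2l1 and Mcl1) bind and restrain the others, effector members (Bax and Bak1) open pores in the outer mitochondrial membrane, and members that share only the BH3 domain (Hrk, Bcl2l11, Bbc3, Bik and Pmaip1) relay death signals by binding the pro-survival proteins or the effectors. In the olfactory epithelium, sensory neurons are born and die throughout life, and loss of a trophic signal or of the axon's target is a well known trigger of their death. Here the family was followed in the main olfactory epithelium (MOE) of newborn mice that lack Bcl11b, a zinc finger transcription factor of the olfactory sensory neuron (OSN) lineage.

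The 10 genes named above were the members, on an array where 18194 gene symbols have a probe set of their own, and every probe set that the array's annotation assigns to exactly 1 of these symbols was read. This gave 29 probe sets of the 45101 on the array, for 9 of the 10 genes. No probe set was assigned to Bax alone, so the effectors are represented by Bak1. Of the 29 probe sets, 26 had a mean signal of at least 20 over the 11 arrays and were tested. The other 3 (2 of Bcl2l1 and 1 of Bak1) had signals between 1.3 and 57.1 and were not tested.

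The arrays measured RNA of the whole MOE at postnatal day 0 from mice labelled BALB/c, each array holding 1 mouse. There were 5 wild type (WT) mice, all male, and 6 mice with the conventional Bcl11b knockout (KO), of which replicates 3 and 6 were female, all born to heterozygous parents. The knockout was not limited to neurons, and the dissected tissue holds supporting, basal, glandular and blood cells besides neurons, so a lower or higher signal cannot separate fewer cells from less RNA per cell. Signals are given as deposited, scaled by the authors so that a GAPDH probe set read 10000 on every array, and changes are KO minus WT on the log2(signal + 16) scale, which understates the change of dim probe sets.

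The labels were checked first. Bcl11b signal on its brightest probe set lay between 2694.3 and 4122.7 in WT and between 560.5 and 1249.8 in KO, and the loss passed the test (-1.88 ± 0.17 on the log2 scale; limma, adjusted p = 1.2e-05). Median array signals ranged from 56.6 to 85.7 in WT and from 62 to 86.5 in KO. The ratio of 3' to 5' GAPDH signal, which grows as RNA is degraded or incompletely copied, was highest on KO 3 (2.70) and KO 2 (2.42), against 1.82 to 2.27 on the other 9 arrays. Spiked poly-A controls, which pass through the whole labelling, split the arrays at their widest gap into 5 of higher level (WT 1 and 2, KO 4, 5 and 6) and 6 of lower level. Markers of mature and immature OSNs, sustentacular cells and horizontal basal cells were all present, whereas the 3 lymphoid markers tested summed to at most 398.6.

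Hrk had the largest difference of the family, and the stretch upstream of its start is shown for that reason. Hrk (harakiri, also called DP5) is a BH3-only gene first described in neurons deprived of trophic support, and stress kinase signalling through JNK is known to switch it on. The 250 bases before its annotated start are on the plus strand of GRCm38.p6, chr5:118169514-118169763 (RefSeq, written 5′ to 3′), with the single match to the ATF/CREB-like motif TGANGTNA in capitals.
Hrk: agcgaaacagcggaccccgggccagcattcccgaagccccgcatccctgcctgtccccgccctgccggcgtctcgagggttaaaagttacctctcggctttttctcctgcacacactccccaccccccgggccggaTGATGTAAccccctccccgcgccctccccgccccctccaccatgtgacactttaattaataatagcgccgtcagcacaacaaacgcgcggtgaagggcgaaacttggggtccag
The match TGATGTAA lies 114 to 107 bases before the start. TGANGTNA, searched on both strands, was found in 14.0% of the 32851 promoter windows of this length in the table, so such a match is common. Of 13 windows for 8 members, only those of Hrk and Bcl2 (TGAAGTAA) held it. AP-1-like TGANTCA and TATAAA, found in 6.75% and 12.4% of all windows, had no match in any of the 13, and TTTNGCGC (1.13% of all windows), an E2F-like motif, matched 1 Bcl2l1 window. The Hrk window held 21 CG dinucleotides against a median of 6, a count reached by 16.3% of windows. These matches describe the letters only.

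Hrk read higher in KO, but did not pass the threshold (adjusted p under 0.05) over the whole array. On its brighter probe set the WT signals were 278.9, 264.6, 217.5, 202 and 260.6, and the KO signals were 494.6, 361, 338, 346.7, 441.2 and 375.2. Every KO array was above every WT array. The lowest KO signal came from KO 3, which had the highest GAPDH 3'/5' ratio. KO 2, of the next highest ratio (2.42), read 361, and KO 4 (1.87) read 346.7. The part of this ratio in the Hrk signals was not tested. The mean went from 245 ± 33.1 (SD, n = 5) to 393 ± 61.9 (SD, n = 6), 161% of WT. The log2 change was 0.65 ± 0.15 (SE; 95% interval 0.33 to 0.96; limma, adjusted p = 0.0713), which placed it 199th of 33662 probe sets by p. Over the array 0.455% of tested probe sets passed, 0.244% higher and 0.211% lower in KO. Groups without overlap were found for 1.29% of all tested probe sets (0.716% higher and 0.573% lower in KO), and among the 26 tested member probe sets this was the only one.

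The dimmer Hrk probe set leaned the same way with more overlap. Its WT signals were 50, 84.7, 35, 36.2 and 37.2, and its KO signals were 71.8, 60.1, 64.5, 74, 70.6 and 89.8. WT 2 lay above 5 of the 6 KO arrays, while the other 4 WT arrays lay below all of them. The log2 change was 0.49 ± 0.20 (SE; limma, adjusted p = 0.578).

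**Figure D1:**
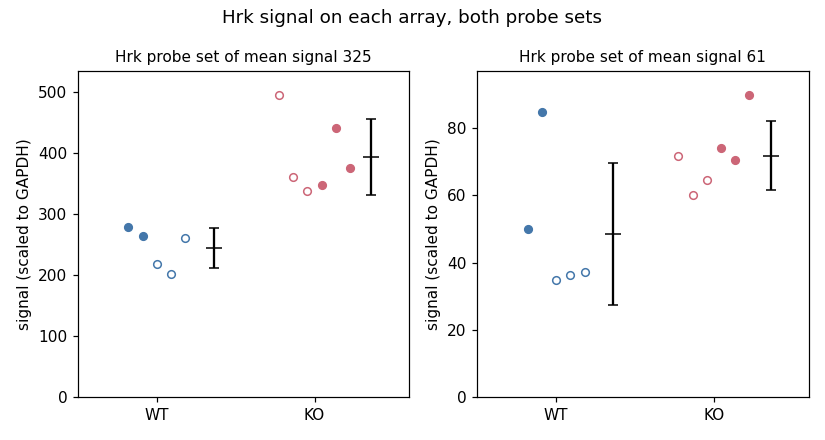
Hrk signal (vertical axis, linear, scaled to GAPDH) on the WT and KO arrays for its 2 probe sets; points are arrays, filled where spiked poly-A controls were higher, and bars give mean ± SD (n = 5 and 6). On the brighter probe set the KO arrays (338 to 494.6) lie above all WT arrays (202 to 278.9), and on the dimmer one WT 2 (84.7) overlaps them.

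Whether Hrk passed depended on scaling, on weighting and on KO 3, while its direction was the same in all 27 alternatives. The brighter probe set passed after quantile normalization (log2 change 0.59, limma adjusted p = 0.034), with array weights (0.66, 0.0237), without KO 3 (0.68, 0.0454) and without both KO 2 and KO 3 (0.72, 0.0399), a setting chosen after seeing the data. It did not pass in the other 23 of 27 alternatives, and over all 27 the change was positive, from 0.47 to 0.76. Its groups stayed apart under all 4 scalings, most narrowly on spiked hybridization controls (WT at most 299, KO at least 305). The dimmer probe set passed in no alternative (lowest limma adjusted p = 0.179, with array weights). Over the mean of both Hrk probe sets, fitted apart from the 27, the change was 0.57 (limma, adjusted p = 0.194). Within the arrays of higher poly-A controls (2 WT, 3 KO) the change was 0.48 on the brighter and 0.20 on the dimmer probe set, and within the others (3 and 3) it was 0.76 and 0.64.

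Markers of other cell populations differed on the same arrays. Of 8 tested mature OSN markers 5 fell and none rose (limma, at the same threshold), with summed signals of 11964 to 15902.1 in WT and 6515 to 9119.3 in KO. When each gene's probe sets were averaged, 3 of the 8 passed, and Gnal and Gng13 did not (adjusted p = 0.503 and 0.297). Of 5 neuronal precursor markers 2 rose, the neurogenic factors Neurog1 and Neurod1, with sums of 3545.7 to 5000.1 in WT and 4617.1 to 7628.6 in KO. Of 4 erythroid markers 2 rose, the embryonic globins Hbb-y and Hbb-bh1, with sums of 818.9 to 1255.2 and 1260.2 to 1710.5. Hbb-bh1 was dim, with mean signals of 13.2 in WT and 85.3 in KO on its brightest tested probe set. The WT mean of Hbb-bh1 alone lay under the minimum mean signal, which was applied over all arrays. Alas2 and Slc4a1 did not pass (log2 changes 0.17 and 0.34, limma adjusted p = 0.943 and 0.874). None of the 8 immature OSN markers passed (median log2 change 0.041), nor any of 7 cell cycle markers (0.15) or 8 macrophage markers (0.19). The lowest signal of a marker on any array was 164.2 in the mature OSN list and 253.8 in the precursor list. It was 22 in the macrophage list and 2.2 in the erythroid list. The part of these shifts in the Hrk difference was not tested.

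By its pattern over the 11 arrays, the brighter Hrk probe set was most like Tle1, a Groucho-type corepressor (Pearson r = 0.97), Abcg1, a sterol transporter (0.95), Syt13, a synaptotagmin (0.94), Ampd2, an AMP deaminase (0.94), and Kdm7a, a histone demethylase (0.93). Of these Tle1, Syt13 and Kdm7a rose in the KO, by 0.64, 1.18 and 0.76 on the log2 scale (limma, adjusted p = 0.0221, 0.00545 and 0.0475). These 5 are the highest of 27803 probe sets, the arrays share the group difference, and the values are a description only. With each group's mean subtracted the highest were Zfp930 (0.95), a Bcl11b probe set of mean signal 234 (0.94), Pip5k1a (0.94), Ogfr (0.93) and Pgpep1l (0.92). Zfp930, Ogfr and Pgpep1l were dim, with mean signals of 55.4, 92.7 and 37.9. The other 3 Bcl11b probe sets had an r of 0.48 to 0.69.

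The pro-survival members did not pass on any probe set. All 6 Mcl1 and all 5 Bcl2 probe sets had positive estimates, and of the 2 Bcl2l1 probe sets the brighter was positive. The 13 estimates ran from -0.072 to 0.27 on the log2 scale. The signs of Mcl1 and Bcl2 depended on the scaling. Scaled on spiked hybridization controls, Mcl1 had -0.074 and Bcl2 -0.042, and the median over the whole array went from 0.047 to -0.12.

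Mcl1, a short-lived protein needed by many progenitors and neurons, was read by more probe sets than any other member. On the brightest its WT signals were 4348, 4507.7, 4786.2, 3951 and 4521.2, and its KO signals were 4492.9, 5580.8, 4377.8, 4434.3, 4930.6 and 4982.1. KO 2, 5 and 6 lay above every WT array, and the other 3 KO arrays lay among them. This probe set had a log2 change of 0.12 ± 0.088 (SE; 95% interval -0.071 to 0.30; limma, adjusted p = 0.932), and its 6 probe sets lay close together, from 0.12 to 0.19. The suffix of 3 of them, the brightest included, marks probes that may also bind other transcripts.

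Bcl2l1, whose long form Bcl-xL is a main pro-survival protein of neurons, read 1180.2, 1361.2, 1183.4, 1046.3 and 1129.7 in WT on its brighter probe set. In KO it read 1353.8, 1524.8, 1089.2, 1333, 1375.7 and 1471.7. KO 2, 5 and 6 were above all WT arrays, and KO 3 was below 4 of the 5. The estimated log2 change was 0.20 ± 0.12 (SE; 95% interval -0.050 to 0.44; limma, adjusted p = 0.865), against -0.072 ± 0.19 on the dimmer tested probe set.

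Bcl2, the founding member, read 622.4, 773.1, 701.5, 764.4 and 763.5 in WT on its brightest probe set. In KO it read 932.7, 678.1, 743.2, 876.8, 815.7 and 778. KO 1, 4, 5 and 6 lay above every WT array. The log2 change was 0.14 ± 0.12 (SE; 95% interval -0.12 to 0.41; limma, adjusted p = 0.954), and the 5 probe sets ran from 0.068 to 0.27. The highest was on the dimmest of them (mean signal 84.2), whose suffix also marks probes that may bind other transcripts.

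**Figure D2:**
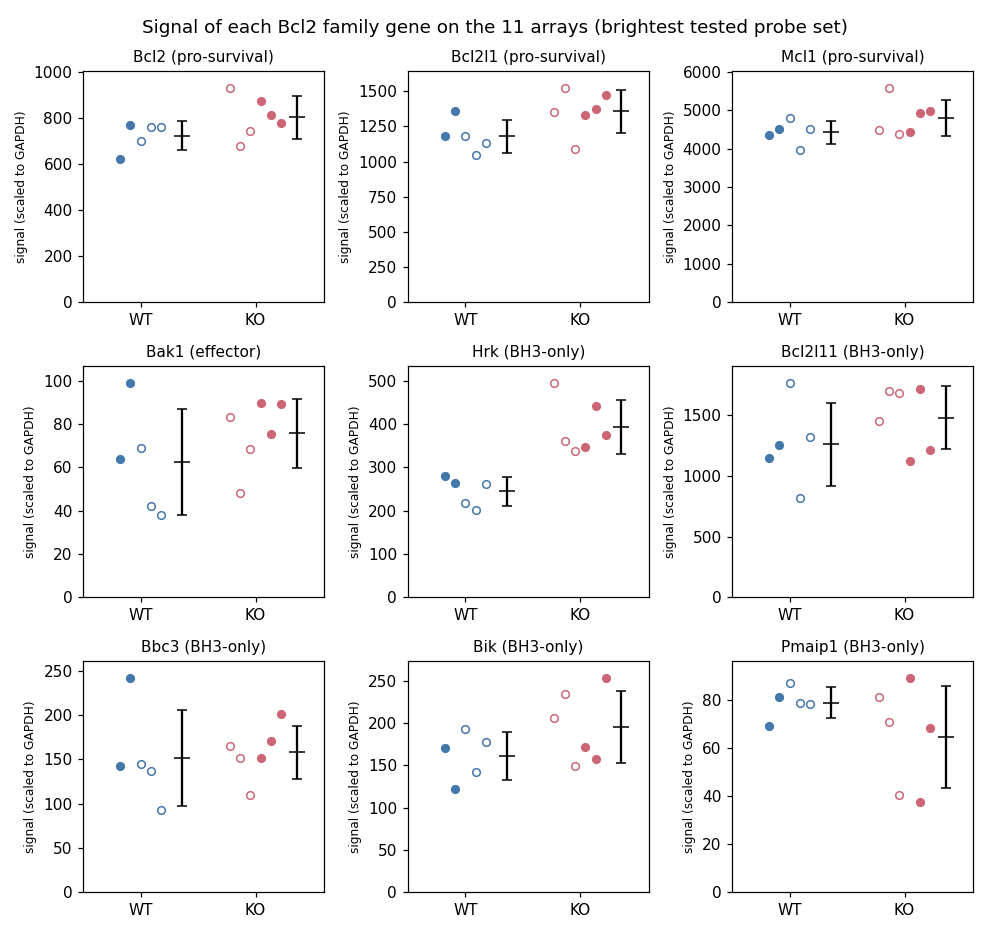
Signal (vertical axes, linear, scaled to GAPDH) of the 9 measured Bcl2 family genes on WT and KO arrays, brightest tested probe set each; points are arrays, filled where spiked poly-A controls were higher, and bars give mean ± SD (n = 5 and 6). The groups overlap in all panels but that of Hrk, where KO lies between 338 and 494.6 and WT between 202 and 278.9.

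Bak1, the effector measured here, was dim. Its WT signals were 64, 99, 69.1, 42.2 and 38.1, and its KO signals were 83.5, 48.1, 68.6, 90, 75.6 and 89.4. The highest array was WT 2 and the lowest 2 were WT 4 and 5, so the KO arrays lay inside the WT range. KO minus WT, Bak1 had a log2 change of 0.26 ± 0.21 (SE; 95% interval -0.19 to 0.71; limma, adjusted p = 0.943).

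Apart from Hrk, the BH3-only members did not separate the groups. Bcl2l11, which encodes Bim and is induced when neurons lose trophic factors, had 5 tested probe sets with log2 changes of 0.084 to 0.30, none past the threshold. On the brightest, WT signals were 1148.1, 1253.3, 1766.2, 818 and 1325, and KO signals were 1455.2, 1698.7, 1682.2, 1126.1, 1716.6 and 1212.9. Both the highest and the lowest array were WT (WT 3 and WT 4). The change there was 0.25 ± 0.17 (SE; 95% interval -0.11 to 0.61; limma, adjusted p = 0.914).

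Bbc3, which encodes the p53 target Puma, read 142, 241.5, 144.5, 137.1 and 92.8 in WT and 165.2, 151.4, 109.5, 151.7, 170.3 and 200.8 in KO. WT 2 was above all other arrays and WT 5 below all. Its log2 change was 0.093 ± 0.20 (SE; 95% interval -0.33 to 0.52; limma, adjusted p = 0.987), and it became -0.049 without WT 5, -0.078 on spiked hybridization controls and -0.092 within the arrays of higher poly-A controls.

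Bik, a BH3-only gene whose protein sits largely at the endoplasmic reticulum, read 170.5, 121.5, 192.4, 141.9 and 177.1 in WT on its brightest probe set. In KO it read 205.6, 234.3, 148.7, 171.6, 157.7 and 252.7. KO 1, 2 and 6 lay above every WT array, and the others lay among them. KO minus WT, the log2 change was 0.25 ± 0.17 (SE; 95% interval -0.12 to 0.61; limma, adjusted p = 0.914), and its other 2 probe sets gave 0.019 and 0.13.

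Pmaip1, which encodes Noxa, a partner of Mcl1 and another p53 target, was the only gene whose brightest probe set had a negative estimate. WT signals were 69.2, 81.1, 86.9, 78.7 and 78.5, and KO signals were 81.4, 70.7, 40.3, 89, 37.5 and 68.4. The WT arrays lay close together, and KO 3 and KO 5 lay far below the other 9. Pmaip1 had a log2 change of -0.28 ± 0.20 (SE; 95% interval -0.70 to 0.14; limma, adjusted p = 0.917).

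**Figure D3:**
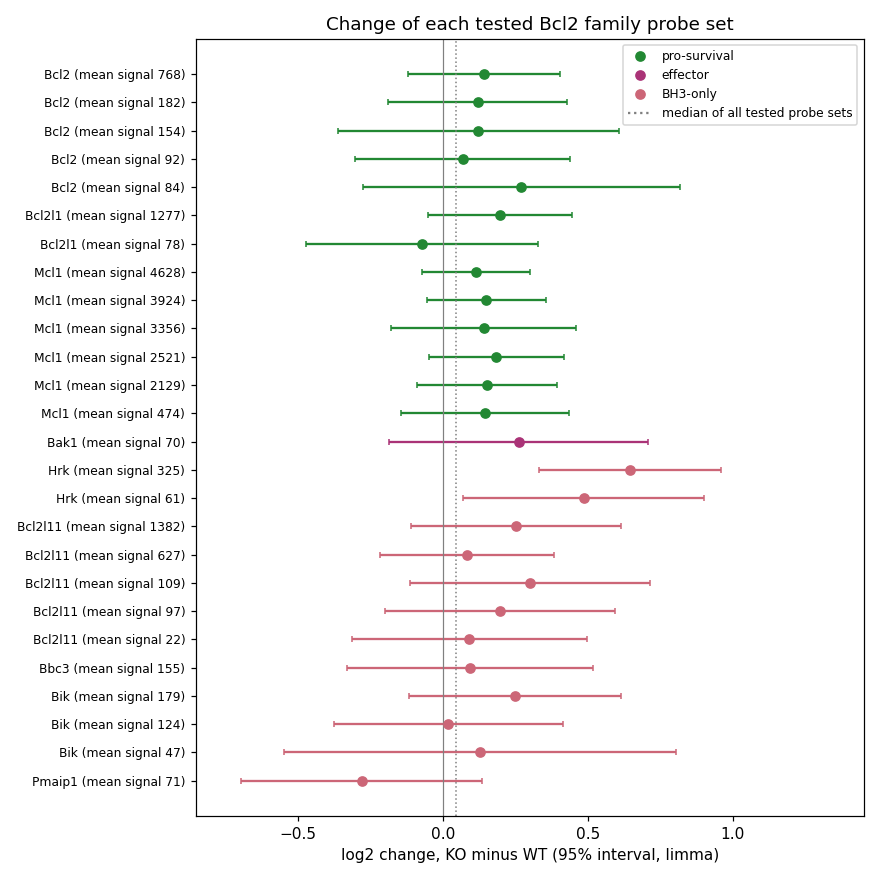
Log2 change (KO minus WT, horizontal axis) with its 95% interval from limma for the 26 tested Bcl2 family probe sets, coloured by role, with the mean signal of each in brackets; the dotted line is the median of all tested probe sets (0.047). Only the intervals of the 2 Hrk probe sets lie above 0, and no interval reaches 1 or -1.

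Pro-survival and pro-death members were then set side by side. Over the genes' brightest probe sets the mean log2 change was 0.15 for the 3 pro-survival genes and 0.20 for the 6 pro-death genes, or 0.11 without Hrk. On each array, the mean of the pro-death genes was subtracted from that of the pro-survival genes. KO minus WT, this difference was -0.051 on the log2 scale, against an SD between arrays of 0.13 in WT and 0.077 in KO, and without Hrk it was 0.037. Both estimates were smaller than the SD of either group. At a minimum signal of 100, which leaves out Bak1 and Pmaip1 (log2 change -0.28), the difference was -0.16. Its size was larger than the SDs of 0.13 in WT and 0.093 in KO. The groups overlapped (2.22 to 2.53 in WT, 2.11 to 2.37 in KO). Hrk (0.65) was 1 of the 4 pro-death genes kept, and the difference without Hrk at this minimum is not given here. With all members, the difference was 0.036 within the arrays of higher poly-A controls and -0.11 within the others. Since the members were chosen with results of these data known, it carries no test.

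Across the family, 24 of the 26 tested probe sets had a positive estimate, with a median log2 change of 0.14, beside 0.047 and 60.4% positive over all tested probe sets. On spiked hybridization controls only 9 of 26 were positive, but 23 of 26 lay above the median of all probe sets, as they did on the deposited scale. Probe sets of 1 gene read the same transcripts and are not separate evidence. None of the 26 passed (limma, Benjamini-Hochberg adjusted), which does not show that their levels were equal. Those with an unadjusted p under 0.05 were the 2 Hrk probe sets, beside 6.92% of all tested probe sets (4.47% higher and 2.45% lower). No 95% interval of a member reached a 2-fold change on this scale.

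The wider death pathway was read through 4 lists, and none of their genes passed the threshold. Among 9 measured relatives in the Bcl2 family the median log2 change was 0.14, and 1 had an unadjusted p under 0.05 (6.92% over the array). This was Bnip3, a hypoxia-induced mitophagy receptor with a BH3-like region, with WT signals of 3365.6, 3626.3, 3766.2, 3166.6 and 3450.9 and KO signals of 6496.2, 4145.7, 5011.2, 4699.5, 3411.9 and 4951.6. All KO arrays but KO 5 lay above WT, and the log2 change was 0.44 ± 0.13 (SE; limma, adjusted p = 0.231). The next by p was Bmf, a BH3-only gene tied to the cytoskeleton, with 0.30 ± 0.16 on its brighter probe set (limma, adjusted p = 0.821) and 0.082 over the mean of its 2 tested probe sets.

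Downstream of the mitochondria, 17 of 20 listed apoptosome, caspase and inhibitor genes were measured, with a median log2 change of -0.026. Birc3, an inhibitor of apoptosis that acts on TNF receptor signalling, ran from 143.8 to 322.3 in WT (median 279.2) and from 298.5 to 476.8 in KO (median 354.75). The change was 0.59 ± 0.19 (SE; limma, adjusted p = 0.349), and WT 5 alone lay inside the KO range. Apaf1, the scaffold of the apoptosome, had -0.30 ± 0.18 on its brighter probe set (limma, adjusted p = 0.876) and -0.074 over the mean of its 2 tested probe sets. Birc3 was the only gene of this list with an unadjusted p under 0.05, beside 6.92% of all tested probe sets.

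Upstream of the BH3-only genes, 14 of 15 listed genes were measured, with a median of 0.16. Of these, 3 had an unadjusted p under 0.05 with higher signal in KO and 1 with lower. Over all tested probe sets the shares were 4.47% higher and 2.45% lower. Ddit3, the stress factor CHOP, had groups without overlap on its brighter probe set, as 0.573% of all tested probe sets had with KO lower, and no other gene of the 4 lists did. Its WT signals were 359.5, 394.7, 595.5, 449.4 and 361.3, and its KO signals were 324.9, 261, 257.8, 262.3, 275.9 and 230.1. Every KO array was below every WT array, and the log2 change was -0.64 ± 0.16 (SE; limma, adjusted p = 0.097). It passed on spiked hybridization controls (-0.82, adjusted p = 0.0234) and in no other alternative, and over the mean of its 2 probe sets the change was -0.44 (adjusted p = 0.544).

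Jun, the transcription factor that JNK activates, leaned the other way. Its WT signals were 1580, 1910.8, 1673, 1509.1 and 1617, and its KO signals were 3417, 2355.9, 1621.7, 2280.7, 2275.6 and 2788. KO 3 lay inside the WT range and the other 5 KO arrays lay above it. The log2 change was 0.53 ± 0.15 (SE; limma, adjusted p = 0.196). It passed with array weights (0.61, adjusted p = 0.0191), without KO 3 (0.64, 0.0201) and without KO 2 and KO 3 (0.68, 0.0176). Over the mean of its 2 probe sets the change was 0.57 (limma, adjusted p = 0.249).

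Among 10 measured death receptor and neurotrophin genes the median was 0.13. An unadjusted p under 0.05 was found for 2, both with higher signal in KO, beside 4.47% higher and 2.45% lower over all tested probe sets. Bdnf, a survival factor for neurons, read 74.9, 53.4, 46.8, 47.5 and 56.5 in WT and 125.4, 87.5, 87.5, 103.1, 91.6 and 71.5 in KO, with WT 1 above KO 6 and no other overlap. Its log2 change was 0.62 ± 0.17 (SE; limma, adjusted p = 0.188). Fas, a death receptor, was dim, from 4.9 to 52 in WT and from 42 to 71.5 in KO, with 0.65 ± 0.26 (adjusted p = 0.587).

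**Figure D4:**
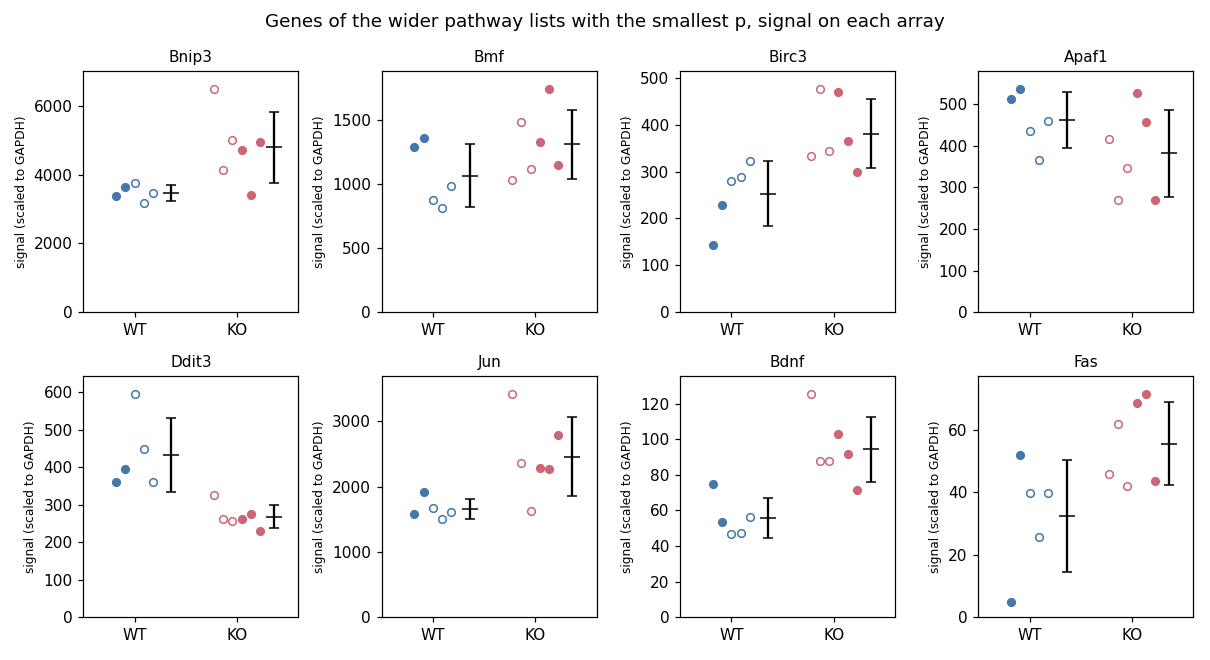
Signal (vertical axes, linear, scaled to GAPDH) on WT and KO arrays of the 2 genes of smallest p in each of the 4 wider lists; points are arrays, filled where spiked poly-A controls were higher, and bars give mean ± SD (n = 5 and 6). Ddit3 is the one panel without overlap, with KO between 230.1 and 324.9 and WT between 359.5 and 595.5.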

How the data were processed

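Total RNA of whole MOE was labelled in a 2-cycle protocol and hybridized to Affymetrix Mouse Genome 430 2.0 arrays. The deposited values are intensities on a linear scale, made by the authors with GCOS (version not given in the sources used here) and scaled linearly to a GAPDH probe set. Detection calls were not used. Of 45101 probe sets, 64 were controls, 34958 had 1 gene symbol and 932 several.

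Intensities were used as log2(signal + 16), and probe sets with a mean signal under 20 and controls were left out, leaving 33662. KO and WT were compared in limma 3.58.1 (R 4.3.3; lmFit, eBayes with trend, no covariate), with Benjamini-Hochberg adjustment over all probe sets and a threshold of 0.05. The fit was also run on simulated data with independent values. These hold no shared differences in array quality, so that run does not judge how such differences act here. A gene is represented by its brightest tested probe set. Precision is limited by having 11 arrays. The labels name no litter or day, so p-values measure only the spread between these mice.

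Members and gene lists were chosen with earlier results of these data known, so no p was computed over them. Named genes were all members, the 2 of smallest p in each pathway list, Bcl11b and the 5 probe sets most alike in pattern to the member of smallest p, with and without group means. The markers named were chosen after their values were seen. Alternatives were other scalings, pseudocounts of 1 and 64, no filter, a minimum of 100, eBayes without trend, array weights, males only, sex, poly-A control level or replicate number as a covariate, comparisons within each poly-A level, the mean of a gene's probe sets, and leaving out each array. A fit without KO 2 and KO 3 was added after seeing the data.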

Additional observations from a re-analysis of the deposited data

Results flagged for a closer look

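Of 56 groups of values examined, 1 held an array far from the rest, where chance would give about 1 in 20. This was a Bcl2l11 probe set, where KO 3 read 61.5 and the nearest KO array 120.8. KO 3 also had the highest GAPDH 3'/5' ratio (2.70), and the part of that ratio in the low reading was not tested.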

How the results depend on the processing

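Over the whole array, against 82 probe sets higher and 71 lower, 225 were higher and 120 lower with array weights, 19 and 12 within the arrays of higher poly-A controls, 29 and 10 within the others, and 204 higher without KO 2 and KO 3, a setting chosen after seeing the data. Lower calls numbered 173 after quantile normalization, 261 on spiked hybridization controls, 44 with sex and 107 with poly-A level as a covariate. Leaving out 1 array gave 49 to 128 higher and 36 to 85 lower, with at most 50 higher without WT 3, WT 4 or WT 5, the most without KO 2, and at most 47 lower without WT 1, WT 2, WT 3 or WT 5. Among members, 1 gene (Hrk) passed after quantile normalization (log2 change 0.59), with array weights (0.66), without KO 2 and KO 3 (0.72) and without KO 3. Leaving out 1 array gave 0 to 1 member genes higher, with Hrk at 0.58 to 0.69. On spiked hybridization controls 9 member probe sets were positive instead of 24, Bcl2 had -0.042, Mcl1 -0.074 and Bbc3 -0.078, and the medians were -0.042 for pro-survival and 0.065 for BH3-only genes. Bbc3 had -0.092 within the arrays of higher poly-A controls and -0.049 to 0.26 when 1 array was left out. The survival minus death difference was -0.16 at a minimum signal of 100, which drops Bak1 and Pmaip1 and keeps Hrk. Of the upstream list 1 gene (Ddit3) was lower on spiked controls, and 1 (Jun) was higher with array weights and without KO 2 and KO 3 (0 to 1 when 1 array was left out). With replicate number as a block (replicate block), 62 probe sets were higher and 29 lower, and Hrk had 0.66 (limma, adjusted p = 0.352). WT and KO arrays of the same number did not deviate together (r from -0.28 to 0.0085), and arrays of different number had r from -0.27 to 0.25. The labels name no litter or day, and these few r values cannot decide whether the numbers pair the mice. Apart from the construction named, the cause of these changes was not tested. Signal near background limits Bak1, Pmaip1 and the dimmer probe sets.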
